A study of Mus musculus with 4 samples.

Results

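Transcripts of 10 genes that encode core parts of the basement membrane were followed through non-parenchymal cells of the mouse liver: the collagen IV chains Col4a1 and Col4a2, the laminin chains Lama4, Lama5, Lamb1, Lamb2 and Lamc1, the nidogens Nid1 and Nid2, and Hspg2, which encodes perlecan. The members were named by symbol and are 10 of the 31053 genes in the deposited tables. Their unique molecular identifiers (UMIs, each 1 captured transcript) were summed over each library and over cells gated by pairs of marker genes: Kdr with Ptprb for endothelial cells, Upk3b with Nkain4 for mesothelial cells, Epcam with Spp1 for bile duct cells and Lrat with Reln for stellate cells. A gated cell had at least 1 UMI of both genes of its pair and not both genes of another pair.

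The mice carried Col1a2-CreERT2, a tamoxifen-inducible recombinase under the control of a collagen gene, and a tdTomato reporter, which the labels write as R26RtdTomato for positive injury, R27RtdTomato for positive recovery, R28RtdTomato for negative injury and R29RtdTomato for negative recovery. Steatohepatitis (MCDHF in the labels) was brought on in 8 weeks by a diet with 45% fat and no methionine or choline, with 0.1% L-methionine given in the water. Reporter-positive and reporter-negative liver cells were taken at injury and in recovery, giving 4 groups of 1 library each, and neither animal numbers nor the length of recovery is given in the sources used here. For positive injury (5311 barcodes) counts were not analysed here, which leaves recovery as the only stage of the reporter-positive fraction. No group without injury was analysed here.

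Basement membranes are thin sheets of matrix under epithelia and around vessels, muscle and nerve. Laminins, trimers of 1 alpha, 1 beta and 1 gamma chain, and collagen IV, a trimer mostly of the Col4a1 and Col4a2 chains, each form a network, and nidogens and perlecan link them. In the healthy liver the sinusoids lack a continuous basement membrane, whereas larger vessels, bile ducts and the mesothelial surface have one, and laminin and collagen IV build up along sinusoids in fibrosis.

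In the order positive recovery, negative recovery and negative injury, 33442403, 27816768 and 49993127 UMIs were counted in 2606, 3108 and 6160 barcodes. Filters kept 2488, 2955 and 5448 of these as cells, whose median depth was 11278, 8673 and 6857 UMIs. Any pair of these libraries shared 3 to 8 barcodes. Endothelial-gated cells numbered 148, 2287 and 3571 in that order, mesothelial-gated cells 1324, 67 and 255, duct-gated cells 25, 385 and 1025, and stellate-gated cells 143, 5 and 38. Groups under 30 cells, which are positive recovery duct and negative recovery stellate cells, were not compared. In each gate used, every endothelial, mesothelial or stellate marker on its own list was detected (8, 6 and 7 genes), as were 6 of 6 duct markers in both duct gates. The duct gates also held hepatocyte transcripts (Alb at 4932 and 6367 CPM, UMIs scaled to a total of 1000000 per group, in recovery and injury). The positive recovery stellate gate held the fibroblast gene Dpt at 647 CPM and the smooth muscle gene Acta2 at 411 CPM, so it may not be made of stellate cells alone. Whether these transcripts came from other cells was not tested. In the negative injury stellate gate vascular endothelial markers summed to 1465 CPM (3 of 4 detected, 339 CPM in positive recovery), endothelial ones to 855 CPM (7 of 8, Stab2 at 0; 651 CPM) and smooth muscle ones to 499.6 CPM (3 of 4; 1585 CPM), and their part in the stellate levels was not tested. The negative libraries held almost no blood cells: the leukocyte gene Ptprc stood at 0.440 and 0.0616 CPM, against 26.6 CPM in the positive one.

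With 1 library per group, and cells that are not replicates of a condition, no test was run and no difference has a replicate check. Levels are given as CPM with exact 95% Poisson intervals, and shares with exact Clopper-Pearson intervals, which cover counting error only. A log2 ratio was taken after adding 10 CPM to both levels, and "higher" or "lower" in a count of genes means past 2-fold on that scale. A gene under 10 CPM in both groups cannot pass 2-fold on that scale, whatever its ratio. Unless stated otherwise, shares and medians of all genes beside such counts are over genes at or above 10 CPM in at least 1 group. Capture was at the 3′ end, so levels are compared for the same gene between groups, and between genes only as a ratio that is itself compared between groups.

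Col4a1 and Col4a2 lie head to head on chromosome 8 and their levels kept a similar ratio in the gates compared, so the sequence around their starts is shown first. In mm10 (GENCODE release M21), Col4a1 spans chr8:11198423-11312826 on the minus strand and Col4a2 chr8:11312805-11449287 on the plus strand, with starts 21 bases apart, so that the annotated genes overlap at their 5′ ends. The RefSeq windows of 300 bases around each start (GRCm38.p6; 250 bases before to 50 after) are chr8:11312777-11313076, minus strand, for Col4a1 and chr8:11312555-11312854, plus strand, for Col4a2. Capitals mark the 78 bases that both windows hold, chr8:11312777-11312854, which read as reverse complements of each other, written 5′ to 3′ on each gene's own strand.
Col4a1: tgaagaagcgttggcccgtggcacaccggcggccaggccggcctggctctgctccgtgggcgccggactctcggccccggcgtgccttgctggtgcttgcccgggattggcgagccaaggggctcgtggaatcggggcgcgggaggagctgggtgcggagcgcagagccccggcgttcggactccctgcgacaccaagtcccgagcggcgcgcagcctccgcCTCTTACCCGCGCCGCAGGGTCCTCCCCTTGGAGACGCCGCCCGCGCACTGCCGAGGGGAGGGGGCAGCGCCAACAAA
Col4a2: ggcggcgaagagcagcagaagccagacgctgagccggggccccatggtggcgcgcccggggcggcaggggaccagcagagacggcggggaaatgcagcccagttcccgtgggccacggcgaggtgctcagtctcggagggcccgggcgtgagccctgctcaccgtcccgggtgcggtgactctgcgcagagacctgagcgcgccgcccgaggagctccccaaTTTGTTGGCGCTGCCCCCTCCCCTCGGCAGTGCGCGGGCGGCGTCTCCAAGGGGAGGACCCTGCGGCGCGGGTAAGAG
GC content was 74.0% and 73.7%, against a median of 52.7% over 32851 such windows. Searched on both strands, the GC box GGGCGG occurred 1 time in the Col4a1 and 3 times in the Col4a2 window and in 35.7% of all windows. The CCAAT box occurred 1 time in each and in 37.4% of all windows, and TATAAA in neither and in 13.6% of all windows. Windows were at hand for 7 of the 10 members, and across the other five, Lama5, Lamb1, Lamb2, Nid1 and Hspg2, the GC box was found 4, 2, 0, 1 and 5 times. These matches describe the letters in the windows only.

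Among the 4 gates, collagen IV transcripts were most abundant in stellate and endothelial cells and several times lower in mesothelial and duct cells. In endothelial-gated cells Col4a1 stood at 633 CPM in positive recovery (95% interval 590 to 678), 722 in negative recovery (710 to 734) and 773 in negative injury (762 to 785). In stellate-gated cells it stood at 684 CPM in positive recovery (646 to 723) and 1191 in negative injury (1092 to 1298). Mesothelial cells had 73.5, 65.6 and 129 CPM in positive recovery, negative recovery and negative injury, and duct cells 53.6 and 93.6 CPM in negative recovery and injury. The order was therefore stellate, endothelial, mesothelial, duct in the injury library, with no overlap between neighbouring intervals, whereas stellate and endothelial intervals overlapped in positive recovery and mesothelial and duct intervals in negative recovery. Col4a2 was at 301, 348 and 365.5 CPM in the endothelial gates and 360.3 and 628 CPM in the stellate gates.

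Of the Col4a1 and Col4a2 UMIs together, Col4a1 made up 67.7%, 67.5% and 67.9% in the 3 endothelial gates, 65.5% in both stellate gates, 68.2% and 67.8% in mesothelial cells of positive recovery and negative injury, and 69.5% and 70.9% in duct cells. By point value only the 67 mesothelial cells of negative recovery stood further off, at 74.8%. Their interval, 65.4% to 82.7%, holds the other values. The injury duct interval (68.9% to 72.8%) lay above the endothelial ones of negative recovery (66.9% to 68.2%) and injury (67.3% to 68.5%). It also lay above those of the stellate gates (63.3% to 67.6% and 62.1% to 68.8%). The ratio thus moved little while the level of Col4a1 ranged from 53.6 to 1191 CPM. Over the 10 gate and library groups with at least 30 cells, log2 levels of both genes had a Pearson correlation of 0.998 (groups of 1 library share cells and depth, so this is a description).

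**Figure D1:**
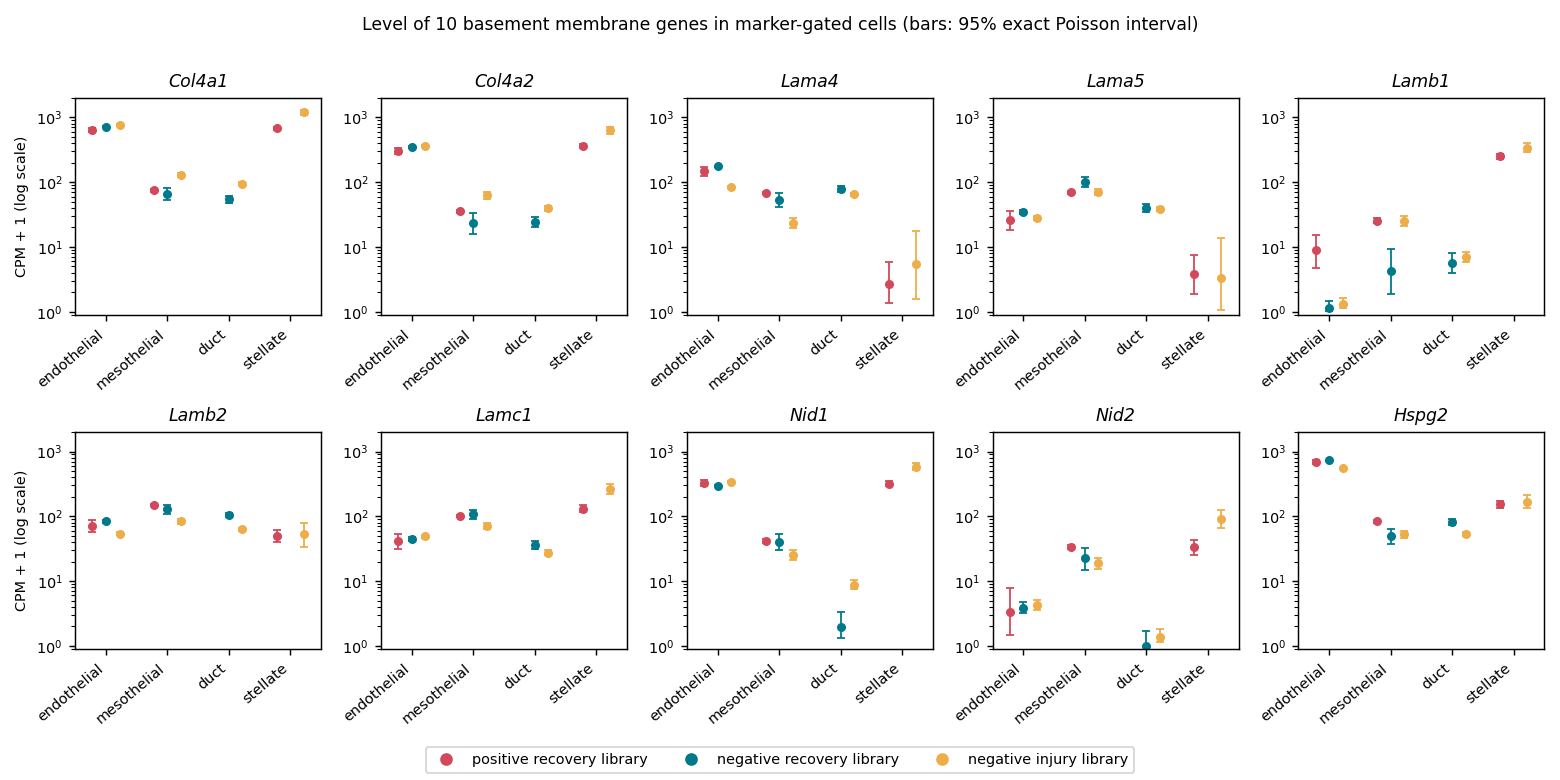
Level of each of the 10 genes (CPM with 1 added, log axis) in endothelial, mesothelial, duct and stellate gates of the 3 libraries; points are levels of summed UMIs and bars exact 95% Poisson intervals. Lamb1 was at 252 and 341 CPM in stellate gates and under 8 CPM in endothelial gates, while Lama4 was at 1.66 and 4.52 CPM in stellate gates and 82.8 to 174 CPM in endothelial gates.

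Laminin alpha chains, which carry the sites that cell receptors bind, split the classes. Lama4 (chr10:38965515-39110188, plus strand), the alpha chain of vessel walls, stood in endothelial cells at 146 CPM in positive recovery (125 to 168), 174 in negative recovery (168 to 180) and 82.8 in negative injury (79.1 to 86.7). Mesothelial cells had 67.0, 52.5 and 22.4 CPM, and duct cells 77.4 and 63.6 CPM. Stellate cells had 1.66 CPM (3 UMIs) in positive recovery and 4.52 CPM (2 UMIs) in negative injury. The 78 leukocyte-gated cells of positive recovery, taken as the background from free RNA, had 4.02 CPM, the level of 3 counts, in 2 cells. Endothelial markers summed to 310 CPM in this class (8 of 8 detected), so it may hold more than free RNA. Negative recovery and negative injury held 2 and 1 leukocyte-gated cells, so no such background was at hand for them. Lama5 (chr2:180176373-180225859, minus strand), the alpha chain of epithelial basement membranes, was highest in mesothelial cells at 69.0, 100.1 and 69.1 CPM. It was at 38.9 and 37.9 CPM in duct cells, 25.2, 34.0 and 27.3 CPM in endothelial cells and 2.77 and 2.26 CPM in stellate cells.

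The share of Lama4 in Lama4 and Lama5 UMIs shows both gradients at once. It was 85.3%, 83.7% and 75.2% in the endothelial gates of positive recovery, negative recovery and negative injury. Duct cells had 66.6% and 62.6%, and mesothelial cells 49.3%, 34.4% and 24.5%. The mesothelial interval of positive recovery (47.5% to 51.1%) lay above those of negative recovery (27.6% to 41.7%) and negative injury (20.6% to 28.6%), and the latter pair overlapped. Stellate cells had too few UMIs of either gene for a share.

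Other alpha chains were present in stellate cells, where Lama4 and Lama5 were low. Lama1, the chain of the first laminin described, was at 45.9 CPM in stellate cells of positive recovery and 197 CPM in those of negative injury, and Lama2, the chain of muscle and nerve basement membranes, at 92.4 and 58.8 CPM. In endothelial cells Lama1 was at 0.787, 0.207 and 0.0449 CPM. Because of the Dpt in the positive recovery stellate gate, its cells were split by a Dpt UMI, a choice made after the values were seen. The 63 cells without Dpt, which had Acta2 at 4.80 CPM, held Lama2 at 56.0 CPM and Lama1 at 110.4 CPM (85.9 to 140). This Lama1 level was under the 197 CPM (158 to 243) of the whole injury gate, which held 4 cells with Dpt. The libraries of these gates differ in both reporter fraction and stage, which cannot be told apart. The 80 cells with Dpt, with Acta2 at 625 CPM, held Lama1 at 11.8 and Lama2 at 112 CPM. All 10 members stayed within 2-fold between these subsets, where 4.53% of genes were higher and 3.1% lower with Dpt. Lama4 and Lama5 were under 10 CPM in both subsets, so they could not be called. Log2 ratios of cells with over without Dpt ran from -0.84 for Lamc1 to 0.85 for Lamb2.

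**Figure D2:**
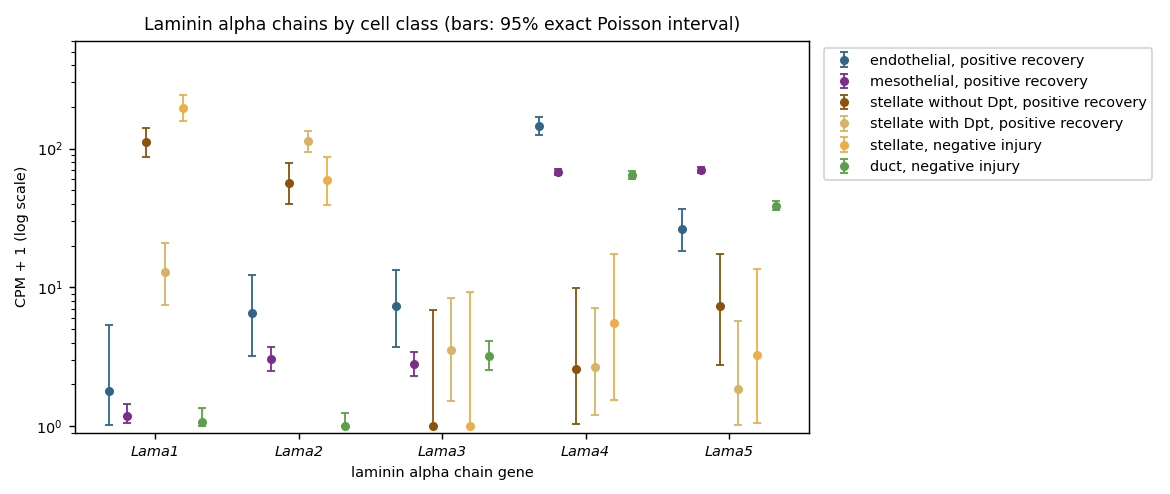
Level of the 5 laminin alpha chain genes (CPM with 1 added, log axis) in endothelial, mesothelial and stellate cells of positive recovery, with the stellate gate split by Dpt, and in stellate and duct cells of negative injury; bars are exact 95% Poisson intervals. Lama2 lay between 56.0 and 112 CPM in the stellate groups, and Lama1 at 110.4 and 197 CPM in the stellate groups without Dpt and of negative injury but at 11.8 CPM with Dpt. Lama4 and Lama5 were higher in the endothelial, mesothelial and duct groups than in any stellate group.

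The beta chains were just as divided. Lamb1 (chr12:31265234-31329644, plus strand) was at 252 CPM (229 to 276) in stellate cells of positive recovery and 341 CPM (289 to 400) in those of negative injury. Mesothelial cells had 24.5, 3.28 and 24.3 CPM in positive recovery, negative recovery and negative injury, and duct cells 4.72 and 5.91 CPM. Endothelial cells of the negative libraries had 0.155 CPM (3 UMIs in 2287 cells) and 0.314 CPM (7 UMIs in 3571 cells). The 7.87 CPM of the positive recovery endothelial gate came from 10 UMIs in 2 of 148 cells, and its 141 sinusoidal cells (defined further on) held 1 UMI. Lamb2 (chr9:108479736-108490530, plus strand), the other beta chain, varied less, from 49.3 CPM in stellate to 146 CPM in mesothelial cells of positive recovery, and from 52.0 to 82.2 CPM over the injury gates.

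Lamb1 thus made up 83.6% (80.3% to 86.7%) and 86.8% (80.8% to 91.4%) of Lamb1 and Lamb2 UMIs in stellate cells. It made up 0.186% and 0.593% in endothelial cells of the negative libraries, 4.33% and 8.76% in duct cells, and 14.3%, 2.52% and 22.8% in mesothelial cells. Thinned to 1000 UMIs per cell, 28.2% and 29.7% of stellate cells had a Lamb1 UMI, against at most 0.699% of cells in any endothelial gate. Of 77 leukocyte-gated cells of positive recovery 0 had one (exact upper limit 4.68%). In each library 1 stellate cell was left out as too shallow. Before thinning the stellate shares were 91.6% and 94.7%, at median depths of 11397 and 11174.5 UMIs (7234 in leukocyte-gated cells). Lamc1 (chr1:153218922-153332786, minus strand), the gamma chain of most laminins, was present in every gate. It was at 130.1 and 267 CPM in stellate cells, between 95.9 and 104 CPM (95% interval), 106 and 69.8 CPM in mesothelial cells, 40.1, 43.2 and 47.8 CPM in endothelial cells, and 34.8 and 26.6 CPM in duct cells.

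Duct and mesothelial cells also held Lamc3, another gamma chain. It was at 146 and 90.4 CPM in duct cells of negative recovery and injury, and under 0.5 CPM in endothelial cells of the same libraries. In mesothelial cells it was at 21.7 CPM in positive recovery, 9.85 in negative recovery and 81.6 in negative injury.

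**Figure D3:**
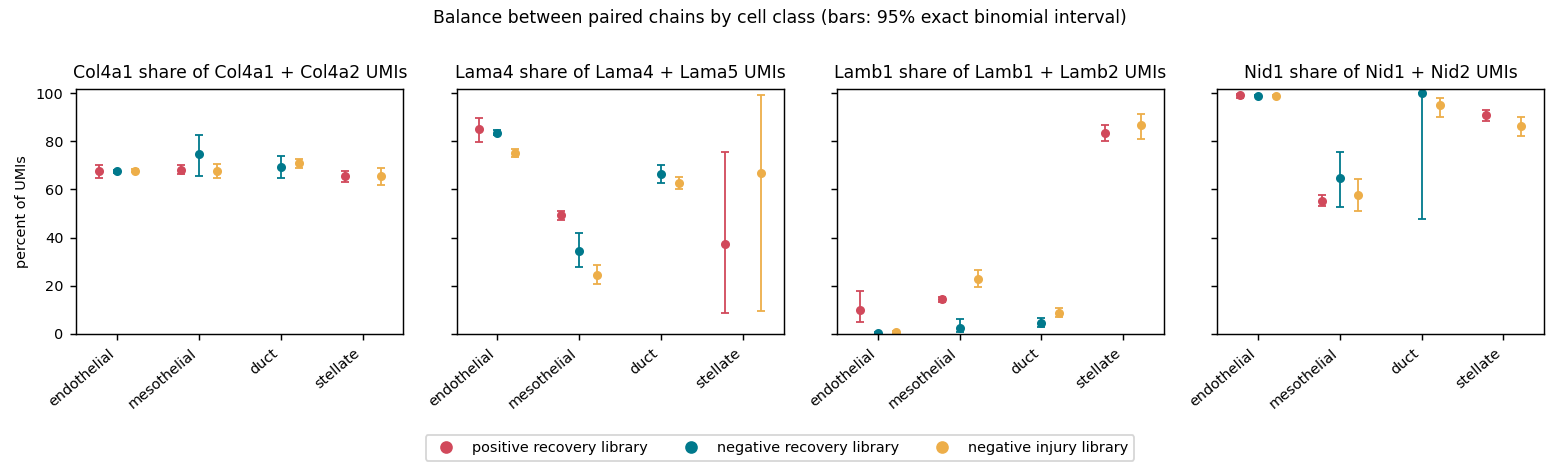
Share of the first gene in the summed UMIs of 4 pairs of related chains (percent, exact 95% binomial bars), by gate and library. The Col4a1 share lies between 65.5% and 74.8% in all groups, while the Lamb1 share runs from 0.186% in endothelial to 86.8% in stellate cells.

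Nidogens link laminin to collagen IV. Nid1 (chr13:13437551-13512269, plus strand) was at 324, 297 and 342 CPM in endothelial cells and 319 and 579 CPM in stellate cells. In mesothelial cells it was at 40.8, 39.4 and 24.5 CPM. Duct cells had 0.982 CPM in negative recovery (5 UMIs in 5089736) and 7.82 CPM in negative injury (6.50 to 9.33), the lowest values of any gate. Those duct cells also held Lama4 at 77.4 and 63.6 CPM and Hspg2 at 80.6 and 52.3 CPM. Any part of RNA from other cells in these levels was not tested. Nid2 (chr14:19751265-19811787, plus strand) was at 32.1 and 90.4 CPM in stellate cells and 32.9, 21.3 and 17.9 CPM in mesothelial cells, but at 2.36, 2.90 and 3.28 CPM in endothelial cells. No Nid2 UMI was seen in the duct cells of negative recovery, where 3 counts would be 0.589 CPM and the exact upper limit was 0.725 CPM, and 6 were seen at injury.

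Nid1 accordingly made up 99.3%, 99.0% and 99.1% of nidogen UMIs in the endothelial gates, 90.9% and 86.5% in stellate cells and 55.4%, 64.9% and 57.9% in mesothelial cells. The mesothelial intervals (52.9% to 57.7%, 52.9% to 75.6% and 51.0% to 64.5%) overlapped. Leukocyte-gated cells of positive recovery had Nid2 in 6.41% of cells, their highest share of any member, at 9.39 CPM. The endothelial Nid2 level of that library, 2.36 CPM, is thus not above the level in this class. All other members were at or under 4.02 CPM in that class.

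Perlecan is a large heparan sulfate proteoglycan that holds growth factors in the membrane. Hspg2 (chr4:137468769-137570630, plus strand) was highest in endothelial cells in every library, at 682 CPM in positive recovery (638 to 729), 731 in negative recovery (719 to 744) and 548 in negative injury (538 to 558). Stellate cells had 152 and 167 CPM, mesothelial cells 82.5, 48.4 and 51.8 CPM and duct cells 80.6 and 52.3 CPM.

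Between classes of 1 library, mesothelial cells had 5 members lower than endothelial cells in each library, the same 5 every time: Col4a1, Col4a2, Lama4, Nid1 and Hspg2. Lama5 and Nid2 were higher in all 3, Lamc1 in both recovery libraries and Lamb1 at injury, so 3 were higher each time. Over genes at or above 10 CPM in either class 13.3% were higher and 16% lower in positive recovery. These shares were 13.6% and 17.8% in negative recovery, and 13.3% and 17.6% in negative injury. Over all genes with a UMI they were 7.20% and 8.68%, 7.82% and 10.3%, and 7.05% and 9.34% in the same order. With TMM scaling, which moved log2 ratios by 0.28 in positive recovery, the split there was 5 higher and 4 lower. Duct cells had 0 members higher than endothelial cells and 5 lower in negative recovery, against 16.4% and 16% of genes, and 0 and 4 in negative injury, against 17.8% and 15.7%. Of those 5, Lama4 was within 2-fold at injury (log2 ratio -0.33).

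Stellate cells of positive recovery had 4 members higher than mesothelial cells (9.16% of genes), Col4a1, Col4a2, Lamb1 and Nid1, by 2.69 to 3.06 on the log2 scale, and 3 lower (9.15%), Lama4, Lama5 and Lamb2. Against endothelial cells, a comparison added after the data were seen, Lamb1, Lamc1 and Nid2 were higher and Lama4, Lama5 and Hspg2 lower in both positive recovery and negative injury. The background there was 11.8% higher and 13.8% lower in positive recovery, and 11.2% and 17% in negative injury. The Lamb1 log2 ratios were 3.87 and 5.09, and those of Lama4 -3.74 and -2.68. When cells positive for several marker pairs were kept, the positive recovery counts were 1 higher and 2 lower.

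Endothelial cells were then divided by their own markers: sinusoidal where Stab2 and Clec4g UMIs together exceeded Vwf UMIs, vascular where Vwf exceeded them. In negative recovery the 115 vascular cells had 5 members lower than the 2164 sinusoidal cells and 0 higher, where 6.09% of genes were lower and 5.42% higher. Col4a1 was at 286 CPM in vascular and 757 CPM in sinusoidal cells, and Hspg2 at 333 and 763 CPM. Col4a2, Lama4 and Nid1 were the others, at log2 ratios of -1.41, -1.07 and -1.14. At injury, with 133 vascular and 3403 sinusoidal cells, 3 members were lower (3.6% of genes) and 0 higher (3.84%): Col4a1 at 345 and 793 CPM, Col4a2 at 172 and 374 CPM, and Hspg2 at 220.2 and 565 CPM. Lama4 was at 80.8 CPM in vascular and 181 in sinusoidal cells of negative recovery, but at 91.5 (73.7 to 112) and 82.5 CPM (78.7 to 86.4) at injury. By log2 ratio Lamb2 was the member furthest on the vascular side in both libraries, at 138 against 79.0 CPM and 90.5 against 50.8 CPM, within 2-fold. Lama5 was nearly level with Lamb2 at injury (log2 ratios 0.717 and 0.726), at 49.3 (36.4 to 65.1) against 26.1 CPM. In negative recovery Lama5 was at 35.7 against 33.8 CPM. Whether the vascular and sinusoidal ratios of Lama4 differ between stages was not tested.

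**Figure D4:**
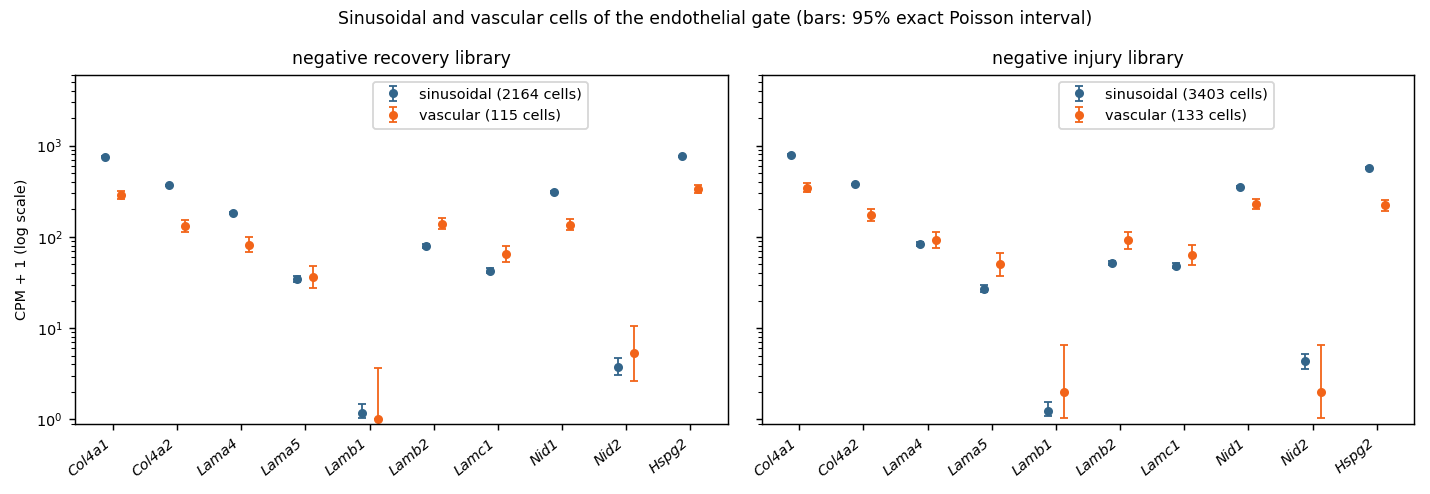
Level of the 10 genes (CPM with 1 added, log axis) in sinusoidal and vascular cells of the endothelial gate, in negative recovery and negative injury; bars are exact 95% Poisson intervals. Col4a1, Col4a2 and Hspg2 lie lower in vascular cells in both libraries, and Lamb2 higher.

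Reporter fractions were compared in recovery. Summed over all cells, Lamb1 was at 52.4 CPM in positive and 2.42 CPM in negative recovery and Nid2 at 29.9 and 3.52 CPM, so 2 members were higher in the positive library, against 9.01% of genes. Lamc1, at 101 and 45.5 CPM, was just inside 2-fold. Hspg2 was at 130.3 and 551 CPM, Col4a1 at 204 and 539, Col4a2 at 102.4 and 259, Lama4 at 62.3 and 146 and Nid1 at 97.9 and 218, so 5 were lower, against 10.3% of genes. The members' median log2 ratio was -0.33, and that of all genes at or above 10 CPM in either library -0.17. TMM scaling, with a shift of 0.16, gave 3 higher and 3 lower. Endothelial-gated cells made up 5.95% of positive and 77.4% of negative recovery cells, and mesothelial-gated cells 53.2% and 2.27%. In such sums fewer cells of a type and less RNA per cell cannot be told apart.

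Within gates the fractions were much closer. In endothelial cells 0 of 10 members passed 2-fold in either direction, where 0.961% of genes were higher and 0.0791% lower in the positive library. Lamb1 and Nid2 were under 10 CPM in both groups, so they could not be called. The log2 ratios ran from -0.32 for Lama5 to 0.82 for Lamb1, whose 10 UMIs lay in 2 cells. The members' median was -0.14, against -0.01 over all genes. In mesothelial cells 1 member was higher (1.72% of genes) and 0 lower (0.124%): Lamb1, at 24.5 CPM (22.5 to 26.6) in positive and 3.28 CPM (0.894 to 8.40) in negative recovery, a log2 ratio of 1.38. This call rested on 4 UMIs in the 67 cells of negative recovery, and with 50 CPM added the ratio was 0.48.

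The positive recovery mesothelial gate held Osr1, the gene in the study's title, at 121 CPM, against 3.28 and 19.6 CPM in negative recovery and injury, and was split by an Osr1 UMI after the data were seen. The 388 cells with Osr1 had Nid2 at 58.1 CPM and the 936 without at 18.9 CPM, which made it the 1 member higher (2.77% of genes). Lama5 was the 1 lower (1.6%), at 28.7 and 91.5 CPM. Lama4 was at 92.4 and 52.9 CPM, within 2-fold, so its share of Lama4 and Lama5 UMIs was 76.3% with Osr1 and 36.6% without. With 50 CPM added neither call remained. In the negative injury library the 38 mesothelial cells with Osr1 had Lama5 at 59.4 CPM and Lama4 at 16.1 CPM, and the 217 without had 70.9 and 23.6 CPM. Nid2 was at 26.0 and 16.3 CPM with and without Osr1 there, and the Lama4 share was 21.3% (11.9% to 33.7%) and 24.9%. Median depths were 16642.5 and 13832 UMIs with and without Osr1 in positive recovery, and a part of depth in the split was not tested.

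Stage was compared in the reporter-negative fraction. Over all cells Lama4 was at 146 CPM (142 to 151) in recovery and 65.6 CPM (63.3 to 67.9) at injury, the 1 member higher in recovery, where 1.55% of genes were, and 0 were lower (3.42%). Its log2 ratio was 1.05, and 0.93 after TMM scaling, which moved ratios between stages by -0.13 over all cells and by -0.19, -0.18 and -0.14 in endothelial, mesothelial and duct gates. The members' median was 0.29, against 0.11 over all genes. Within endothelial cells it was at 174 and 82.8 CPM, a log2 ratio of 0.99 (0.81 after TMM scaling), and within sinusoidal cells at 181 and 82.5 CPM. In endothelial cells 0 members passed 2-fold, against 0.795% of genes higher and 2.78% lower, and the median was -0.03 against 0.17 over all genes. Lamb1 and Nid2 were under 10 CPM at both stages there, so they could not be called. Lamb2 was next after Lama4, at 83.2 and 52.7 CPM, then Hspg2 at 731 and 548 CPM. Col4a1, Col4a2, Lamc1 and Nid1 had log2 ratios of -0.20 to -0.07. After thinning, 16.4% of endothelial cells had a Lama4 UMI in recovery and 8.61% at injury, and before it 66.2% and 35.3% at median depths of 8428 and 6152 UMIs. Hepatocyte markers summed to 109 CPM in recovery and 470 CPM at injury in these cells, with 6 of 6 detected in both, vascular markers to 997 and 1954 CPM (4 of 4) and central vein markers to 837 and 428 CPM (3 of 3). Their part in the Lama4 difference was not tested, and the sinusoidal values stand above.

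Mesothelial cells had 2 members lower in recovery than at injury (2.64% of genes) and 0 higher (2.51%), or 3 and 0 after TMM scaling, with a median of 0.32 against 0.10 over all genes. Col4a2 was at 22.2 CPM (14.6 to 32.2) in recovery and 61.4 (54.8 to 68.6) at injury, and Lamb1 at 3.28 (0.894 to 8.40) and 24.3 (20.2 to 29.0). Col4a1 followed at 65.6 and 129 CPM, a log2 ratio of -0.88, while Lama4 went the other way at 52.5 and 22.4 CPM, a ratio of 0.95. Markers of other cells in this gate also moved: endothelial ones summed to 304 CPM in recovery and 84.2 at injury (8 of 8 detected in both), vascular ones to 304 and 513 CPM (3 and 4 of 4), duct ones to 2448 and 1392 CPM (4 and 5 of 6, Epcam at 0 in both) and smooth muscle ones to 136 and 25.5 CPM (2 of 4, Myh11 and Cnn1 at 0 in both). Their part in these differences was not tested. Neither call remained with 50 CPM added, and that of Col4a2 not when cells of several marker pairs were kept (-0.92). In duct cells 0 members passed 2-fold, against 0.864% higher and 2.11% lower, with a median of -0.01 against 0.07. Lamb1, Nid1 and Nid2 were under 10 CPM in both duct groups, so they could not be called. Col4a1 was at 53.6 and 93.6 CPM and Nid1 at 0.982 and 7.82 CPM, both with log2 ratios of -0.70. Among the 364 and 806 duct cells under 1% Alb, a limit set after the data were seen, 0 members were past 2-fold, against 0.915% higher and 2.18% lower, and both ratios were -0.79. In the whole duct gate, vascular markers summed to 46.8 CPM in recovery and 321 at injury (4 of 4 detected in both). Stellate ones summed to 190 and 307 CPM (5 and 6 of 7, Des at 0 in both) and hepatocyte ones to 6789 and 9738 CPM. Endothelial ones went the other way, at 119 and 69.2 CPM, as did mesothelial ones. The part of these markers in the duct differences was not tested.

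**Figure D5:**
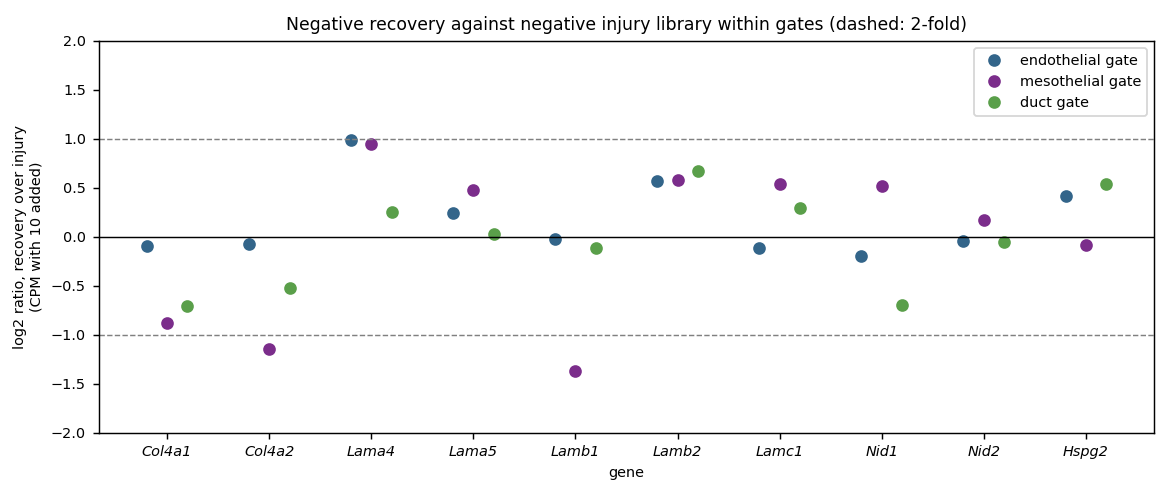
Log2 ratio of negative recovery over negative injury for each gene (CPM with 10 added) in endothelial, mesothelial and duct gates, with dashed lines at 2-fold. Lama4 reached 0.99 in endothelial and 0.95 in mesothelial cells, and Lamb1 -1.37 and Col4a2 -1.15 in mesothelial cells.

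Related genes were read from 3 lists: 23 other basement membrane components, 10 genes for folding and crosslinking of collagen IV, and 13 receptors. Between reporter fractions over all cells, 6 other components were higher in the positive library and 2 lower, against 9.01% and 10.3% of all genes. The median log2 ratio was 0.39 over the 23 and 0.70 over the 16 at or above 10 CPM in either library. Smoc2, a calcium-binding matrix protein, was at 169 and 13.2 CPM, while Tinagl1 was at 115 and 949 CPM and the short laminin-like Ntn4 at 41.7 and 374 CPM. Of the folding genes 2 were higher and 2 lower (median -0.03). The collagen chaperone Serpinh1 was at 627 and 222 CPM and the collagen IV crosslinking peroxidase Pxdn at 43.9 and 148 CPM. Of the receptors 4 were higher and 2 lower (median 0.44, or 0.81 over the 11 at or above 10 CPM), among them the collagen receptor Ddr2 at 98.1 and 7.04 CPM and the collagen-binding integrin Itga1 at 180.3 and 592 CPM.

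By class, mesothelial cells of negative recovery had 7 other components higher and 4 lower than endothelial cells (12 of 23 reached 10 CPM; 13.6% and 17.8% of all genes), with the collagen IV chains Col4a4 at 138 and 7.35 CPM and Col4a5 at 41.8 and 0.155 CPM. Receptors split 6 to 3, with Bcam, which binds Lama5, at 871 and 48.6 CPM and Itga1 at 50.9 and 803 CPM. Duct cells of negative recovery had 8 components higher and 4 lower than endothelial cells (15 of 23 reached 10 CPM; 16.4% and 16% of all genes), with Col18a1 at 85.9 and 0.932 CPM, and 4 receptors higher, among them Itgb4 of the epithelial laminin receptor at 47.9 and 4.61 CPM, and 1 lower. Their folding genes were 1 higher and 4 lower, with Pxdn at 8.06 and 200 CPM. Stellate against mesothelial cells of positive recovery had 8 components higher and 5 lower (19 of 23 reached 10 CPM; 9.16% and 9.15% of all genes), with Col15a1 at 136 and 3.51 CPM. Folding genes there were 5 higher and 0 lower, with Loxl2 at 149 and 57.5 CPM, and receptors 2 higher and 4 lower, with Itga1 at 763 and 43.0 CPM and Bcam at 6.64 and 486 CPM.

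Between stages, where few of all genes passed 2-fold in these gates (0.795% to 2.78% in each direction), few list genes did. In mesothelial cells Col4a4 was at 138 CPM in recovery and 43.9 at injury, Fras1, a protein of epithelial basement membranes, at 37.7 and 9.42 CPM, and Lamc3 at 9.85 and 81.6 CPM, which was 2 components higher and 1 lower of 23. Duct cells had Fras1 at 28.7 and 6.23 CPM and the collagen-binding Sparc at 305 and 697 CPM. Endothelial cells had 1 component higher, Hmcn1, at 63.1 and 23.8 CPM. In these 3 gates 0 of 10 folding genes and 0 of 13 receptors passed 2-fold. In the order endothelial, mesothelial and duct, 9, 10 and 8 folding genes and 8, 11 and 11 receptors reached 10 CPM.

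The genes most like a member in pattern, members themselves left out, were sought over the 10 gate and library groups, among 6120 genes that reached 50 CPM in at least 1. By Pearson correlation of log2 levels, Itga1 was nearest to Col4a1 (0.98), Efna1 to Lama4 (0.98), Bcam to Lama5 (0.97), Pdgfra to Lamb1 (0.99), Ptpn14 to Lamb2 (0.92), Pip4k2a to Nid1 (0.99), Afap1l2 to Nid2 (0.98) and Grk2 to Hspg2 (0.99). Among the members themselves, Col4a1 and Col4a2 had 0.998, Lamc1 and Nid2 0.98, and Lama4 and Lamb1 -0.91. These groups come from 3 libraries and 4 cell classes, so values are not independent.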

How the data were processed

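Libraries were made by the 3′ v2 droplet method of 10x Genomics after Pronase and Collagenase digestion and a Nycodenz gradient, per the labels' protocols. The deposited matrices hold UMI counts per gene and barcode, not normalized; per the file headers, version 3.1.0 of the matrix software wrote them. The submitters' processing notes name featureCounts 1.6.2 and the builds mm10 and GRCh38; the aligner, the calling of cells and the separation of reporter fractions are not stated in the sources used here. In the 3 libraries with counts, the lowest barcode held 500 or 501 UMIs.

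Cells with at least 500 UMIs, 300 genes and at most 20% mitochondrial UMIs were kept. Cells of at least 2 marker pairs (153, 70 and 184 in positive recovery, negative recovery and negative injury) and of no pair (695, 141 and 375) were in no gate. Doublets were left in: Scrublet (scanpy 1.11.5) called 4.34%, 0.203% and 0.0918%, so doublets may remain in the negative libraries, and removing its calls was an alternative. UMIs were summed per group and divided by the group's total to give CPM. Background percentages are over genes at or above 10 CPM in at least 1 group; in all cells 10, 8 and 8 of the 10 members reached that level, with Lamb1 and Nid2 under it in both negative libraries. Differential testing was not possible with 1 library per group. TMM factors came from edgeR 4.0.16. Scripts ran in Python 3.11.15 with numpy 2.4.6 and scipy 1.17.1, and the ratio and interval steps were tested on simulated data with 200 changed genes. Of the gene IDs 30934 of 31053 were found in GENCODE M21, which gave coordinates.

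Members and lists were chosen with earlier results of these data known. All members are named; from each list the 3 genes highest and 3 lowest past 2-fold in a comparison could be named, and the 3 most similar genes were computed and the first printed. Levels of further laminin chains, the Osr1, Dpt and Alb splits and stellate against endothelial cells were added after the data were seen.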

Additional observations from a re-analysis of the deposited data

How the results depend on the processing

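No paired analysis was possible because each group has 1 library. Alternatives were TMM scaling, 1 or 50 CPM added, at least 2 UMIs of both gate genes, mixed-pair cells kept, no cell filter, at least 2000 UMIs per cell, Scrublet calls removed, means of per-cell CPM and, for the background, all genes with a UMI. Single ratios were followed for the comparisons between fractions, between stages (over all duct cells) and of stellate over mesothelial cells in positive recovery. Of these 680 ratios 575 stayed within their counting interval, 105 moved and 0 of the called ones changed sign. Single ratios of the remaining comparisons were not followed, only their numbers past 2-fold. Numbers of members past 2-fold moved as follows, and the cause was not tested. With 50 CPM added they were 3 between fractions over all cells (7 as reported), 0 between stages over all cells (1), 0 between fractions and 0 between stages in mesothelial cells (1 and 2), 4, 5 and 4 in mesothelial over endothelial cells of positive recovery, negative recovery and negative injury (8 each), 3 in vascular over sinusoidal cells of negative recovery (5), 3 in stellate over endothelial cells of positive recovery (6) and 0 by Osr1 (2). With 1 CPM added they were 2 between stages over all cells, 1 between fractions in endothelial cells, 1 between stages in endothelial cells, duct cells and duct cells under 1% Alb (0 each) and 2 by Dpt (0). TMM scaling and per-cell means each gave 0 between stages over all cells. Mixed-pair cells gave 3 between fractions in endothelial cells (0), with Lamb1, Lamc1 and Nid2 higher, 5 in mesothelial over endothelial cells and 3 in stellate over endothelial cells of positive recovery, and 1 by Dpt. Levels of few UMIs, such as stellate Lama4 and Lama5 or Lamb1 in negative recovery mesothelial cells, are limited by depth.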

Other observations

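Cells outside all gates also held members. In positive recovery 99 cells with no complete marker pair had UMIs of the fibroblast genes Dpt and Mfap4, a group chosen after the data were seen. They held Col4a1 at 913 CPM (859 to 970), Col4a2 at 555, Nid1 at 266, Hspg2 at 171, Lamb1 at 162, Lamc1 at 131, Lamb2 at 121 and Nid2 at 34.7 CPM, with Lama4 at 10.4 and Lama5 at 6.95 CPM. Lama2 was at 155 CPM and Lama1 at 2.60 CPM in them, where stellate-gated cells without Dpt had 56.0 and 110.4 CPM. These 99 cells were 3.98% of the library's cells and held 8.57% of its member UMIs and 3.48% of all its UMIs. Cells of no pair, these 99 among them, held 13.7% of the library's member UMIs and 10.2% of all its UMIs. Cells of at least 2 pairs held 17.7% of member UMIs and 10.9% of all UMIs. By gene, from 12.5% (Lama5) to 46.3% (Col4a2) of UMIs lay outside all gates there, with Col4a1 at 44.7%. Mesothelial-gated cells held 48.0% of member UMIs in that library, less than their 68.9% of all its UMIs. Endothelial-gated cells held 91.0% and 77.1% of member UMIs in negative recovery and injury, against 70.8% and 45.7% of all UMIs.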
